A study of Mus musculus with 20 samples.

Results

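The regions described here are 2493 of 42403 sites bound by GATA6. The paper identified them in mouse embryonic stem (ES) cells under forced GATA6 expression, and in XEN cells, which are described below. They were selected on 4 deposited classes: Late GATA6 binding, no SOX17 peak, no peak of a pluripotency transcription factor (PTF: OCT4, SOX2 or ESRRB), and the histone signature of facultative heterochromatin in untreated ES cells. The measured values that chose them were thus GATA6 enrichment over the time course, the peak calls of SOX17 and of the PTFs, and ES cell histone marks. The paper shows the GATA6 classes in XEN cells too, so GATA6 binding in XEN cells may also have entered the choice. Of the 14243 Late regions, 6640 had no SOX17 peak, 6414 of these had no PTF peak, and 2493 of these were in facultative heterochromatin. ATAC-seq, which counts transposase insertions and so measures how open a region is, took no part in the choice, although accessible DNA and transcription factor binding often go together. All results below are ATAC-seq values.

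Accessibility was measured in 20 samples. Of these, 17 were KH2 ES cells, of genotype C57BL/6 x 129/Sv and carrying a doxycycline-inducible Gata6 cassette, grown with LIF on inactivated fibroblast feeders, which the labels say were adsorbed on plastic before transposition. They were taken before induction (d0, 3 samples) and after 8 h (3), 16 h (3), day 1 (3), day 2 (3) and day 4 (2) in 1 µg/mL doxycycline. The other 3 were wild-type XEN cells of the X10 line, a stem cell line of extraembryonic endoderm, of CD1 background, grown in the same way but without LIF, and not induced. Per the methods, the cassette was placed in the KH2 genome with FLP recombinase and 2 clones were kept, and the labels do not say which clone each sample is. XEN cells are represented by this single line, so that stage, strain, line and LIF cannot be told apart in any comparison with XEN cells. The treatment labels list longer exposures than the titles for some groups, and the titles were used.

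The deposited accessibility is an average per group in RPM, that is, reads scaled to library size. For 24999 regions, 1425 of the late GATA6-only regions among them, the averages could be split back into whole reads of 16 libraries, namely 3 each at 8 h, 16 h, day 1 and day 2, and 2 each at day 4 and in XEN cells. The letters a, b and c below name these libraries and are not the labelled replicates. The d0 average could not be split, so no test uses d0. The reference is 8 h, apart from comparisons between later groups, which are named as such. The other 1068 regions have averages but no test. The scaling of the libraries corresponds to totals of 181 to 288 M reads, apart from XEN library a with 43.3 M, in which 1 read is worth 0.0231 RPM. As a check of the labelled cell types, the summed accessibility of the 57 regions nearest to 5 ES cell genes (Pou5f1, Sox2, Nanog, Esrrb, Zfp42) went from 17.4 RPM at d0 up to 25.1 RPM (day 2) and then to 12.1 RPM (day 4), with 7.50 RPM in XEN cells. That of the 81 regions nearest to 6 endoderm genes (Gata6, Gata4, Sox17, Sox7, Pdgfra, Dab2) was 13.9, 55.9, 44.0 and 32.7 RPM in the same order. Feeder fibroblast genes (Col1a1, Col1a2, Twist2, Prrx1, Thy1) had 12 regions with 1.45, 3.11, 2.32 and 2.71 RPM, and the part of feeders in the results below was not tested. In these bulk samples, more cells with an open region and a more open region per cell cannot be told apart.

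Facultative heterochromatin is chromatin that is silenced in one cell type and can be used in another. Its hallmark is methylation of histone H3 at lysine 27, laid down by Polycomb repressive complexes, and in ES cells it covers many genes that control later lineages. GATA6 is a zinc finger factor that can bind its site on nucleosomes and drives formation of the primitive endoderm, the tissue of the blastocyst from which XEN cells are derived and which forms the yolk sac lining. SOX17 is a high mobility group factor of the same lineage that often binds beside it.

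A GATA6 motif was found by the authors' scan in 89.6% of the late GATA6-only regions, with a median best score of 9.76, against 89.7% and 10.2 over all regions. Sites are printed below for the regions with the largest gains at day 4, for those highest in XEN cells relative to day 4, and for those with the best motif scores, so that the sites can be set beside the responses given below. They are from the mm10 (GRCm38.p6) sequence, 5′ to 3′ on the strand of the motif, with the bases of the motif in capitals.
Limch1, chr5:66888339-66888368, minus strand: ttaaccctGCGAGATAAGATTgagtgaact
Slc34a2, chr5:52992562-52992591, plus strand: ttcccactTTTAGATAAGACGgtaattctt
Cd247, chr1:165818717-165818746, plus strand: ggaggggaGAGAGAGAAGACAgcgcctctc
Txlnb, chr10:17793169-17793198, minus strand: tggaagacTCTAGATAACAAGgctagacaa
Hs3st4, chr7:124359051-124359080, minus strand: atagatacCTAAGATAAAAACattccaagg
Atp2b4, chr1:133816052-133816081, minus strand: gccataggAACAGATAACATTgaacagagc
Samd5, chr10:9699258-9699287, plus strand: aggctggaCCCAGATAACCCActtccgcca
Rnf146, chr10:29398667-29398696, plus strand: gtggtagaAGGAGATAAGGGCagcaggaga
Spns2, chr11:72482179-72482208, plus strand: gcagagggAAGAGATAAGAGGtctgagttg
Wnt2, chr6:17963679-17963708, minus strand: cacgctgaCACAGATAACATGgagacaaga
Igsf11, chr16:38918672-38918701, plus strand: gggggacaGAAAGATAAAAGAgtgtaggtg
Ntf3, chr6:126035873-126035902, plus strand: cagataagTACAGATAAGTCAcaaacatga
Sucla2, chr14:73535597-73535626, minus strand: atctggagTCCAGATATGGGGcttaggctt
Map1b, chr13:99459673-99459702, minus strand: tcagtctaGGGAGATAAGAGAagcactcag
Usp47, chr7:112035858-112035887, plus strand: cagagttgGAGAGATAAGAAAtgacctcat
Efna5, chr17:62655898-62655927, plus strand: tggatcttGACAGATAAGAGAgagcaaaca
Castor2, chr5:133856257-133856286, plus strand: gagaaggaAGGAGATAAGAAAgaggaaaga
Ankrd65, chr4:155794023-155794052, minus strand: tcttatcaCAGAGATAAGAAAagaatctag

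These are the sites of all regions in the 3 groups, apart from those near Clmp and Mtus1, in which the scan gave no motif. The Cd247 and Sucla2 sites lack the core AGATAA, which the others hold. It was in the motif of 57.2% of the 2198 late GATA6-only regions whose motif was not clipped, and of 60.2% of all such regions. Sites with this core lay in regions with different calls: the Map1b site, with the highest score of these regions (15.2), and the Usp47 site (15.1) lay in regions that were not called at day 4, while the Samd5 site, with a score of 8.50, lay in a region that was.

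The late GATA6-only regions stayed closed for the first day of GATA6 expression, opened in part by day 4, and were most open in XEN cells. Their median RPM was 0.0267 before induction and 0.0274 to 0.0324 during the first day, then rose to 0.0457 on day 2 and 0.0600 on day 4, and was 0.103 in XEN cells. On the log2(RPM + 0.03) scale, which understates the change of low values, the median change from d0 was 0.13 on day 1, 0.39 on day 2 and 0.65 on day 4, and it was 1.22 in XEN cells. All 42403 regions together had 0.31, 0.69, 0.52 and 0.40, so a general rise is part of each of these values. Relative to all regions the late GATA6-only regions differed by -0.30 on day 2, 0.13 on day 4 and 0.82 in XEN cells. The accessibility class at d0 was closed for 2461 of them and moderate for 32.

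**Figure D1:**
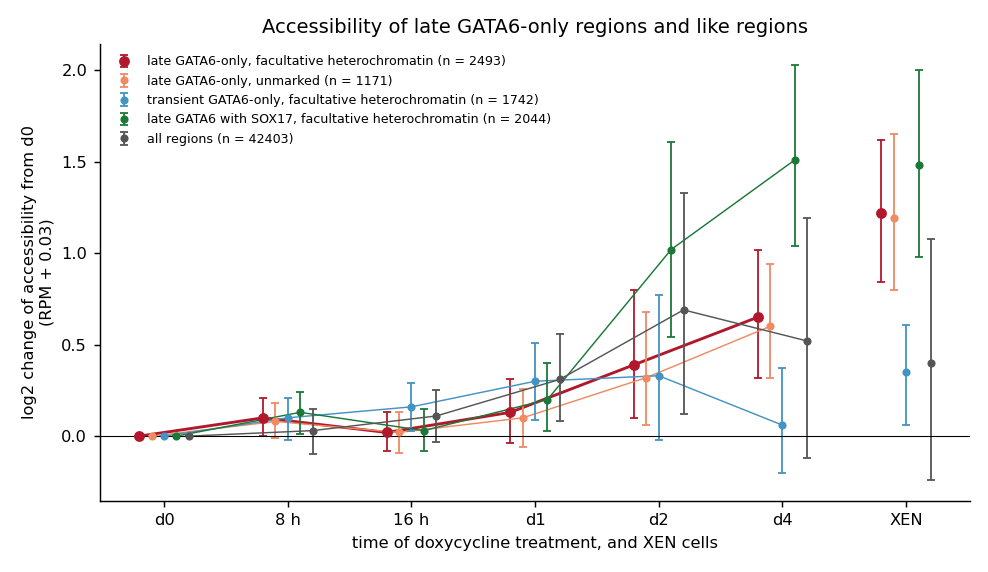
Median log2 change of accessibility from d0 (points; bars span the middle 50% of regions) at each time of doxycycline treatment and in XEN cells, for late GATA6-only regions in facultative heterochromatin, 3 like sets and all regions. The late GATA6-only regions reached 0.65 at day 4 and 1.22 in XEN cells, where all regions stood at 0.52 and 0.40.

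Counted without a test, 11 of the 2493 regions were more than 2-fold higher than d0 at day 1 (0.441%, against 4.55% of all regions), 426 at day 2 (17.1% against 36.8%), 650 at day 4 (26.1% against 31%) and 1634 in XEN cells (65.5% against 27.7%). None was more than 2-fold lower in any of these groups, where 1.41% of all regions were on day 2, 7.27% on day 4 and 8.83% in XEN cells. With 0.03 RPM added, a 2-fold fall was out of reach for most of these regions. Their d0 median was 0.0267 RPM, against 0.0777 RPM over all regions, so the absence of falls is not a contrast with all regions. Of the 1634, 449 had also passed 2-fold at day 4 (18% of the set, against 17.3% of all regions) and 1185 had not (47.5%, against 10.4%), while 201 passed 2-fold at day 4 but not in XEN cells (8.06%, against 13.7%). The day 4 count depended on the pseudocount and the scaling. It was 1231 with a pseudocount of 0.006 RPM (49.4%, then above the 38.8% of all regions), 68 with 0.15 RPM (2.73% against 13.9%) and 195 after centring on the median (7.82% against 15.8%), which also turned the day 2 median to -0.44. In XEN cells the share exceeded that of all regions in each case, at 84.5% against 35.9%, 11.4% against 9.16% and 32.8% against 14.4%. XEN cells exceeded day 4 by any amount at 1939 regions, which is 77.8%, against 45.4% of all regions.

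The single libraries showed the same order, with low reads behind each region. The median of the 1425 regions with recovered reads was 4 to 9 reads per region in the 8 h libraries, 4 to 7 at 16 h, 6 to 8 at day 1, 9 or 10 at day 2, 12 in both day 4 libraries, and 5 and 27 in XEN libraries a and b. As RPM, the 8 h libraries had medians of 0.0190, 0.0329 and 0.0422, the day 1 libraries 0.0306 to 0.0331, the day 2 libraries 0.0393 to 0.0484, the day 4 libraries 0.0603 and 0.0641, and the XEN libraries 0.0936 and 0.115. The day 4 libraries were above every earlier library, and both XEN libraries were above both day 4 libraries. Divided by width, the median of the late GATA6-only regions was 0.356 to 0.705 of the median of all regions in each library up to day 2, 0.697 and 0.713 at day 4, and 1.31 and 1.36 in XEN cells. XEN cells were thus the group in which these regions stood above the median GATA6 region of the same library.

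**Figure D2:**
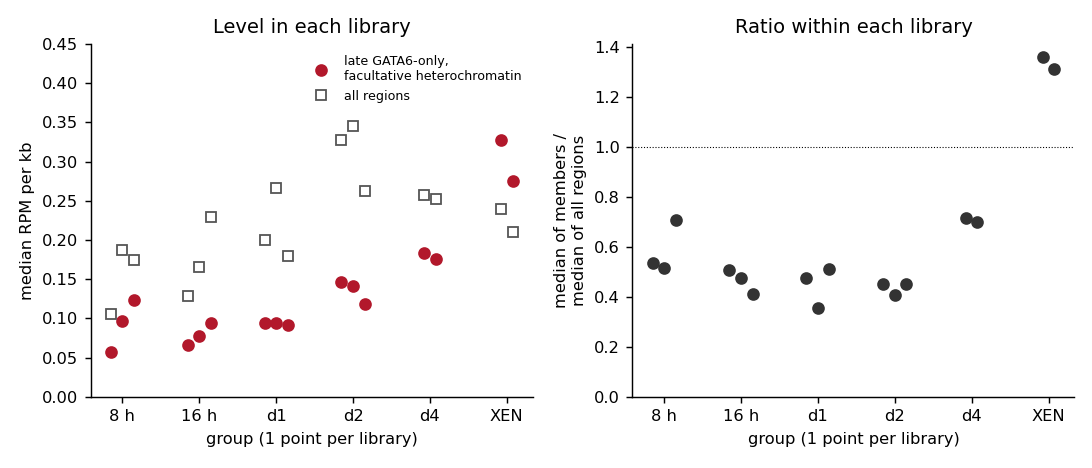
Left, median RPM per kb of late GATA6-only regions in facultative heterochromatin and of all regions in each recovered library. Right, the ratio of both medians within each library, which was 0.697 to 0.713 at day 4 and 1.31 to 1.36 in XEN cells.

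Each region was tested with limma on log2(RPM + 0.03) of the 16 libraries, with Benjamini-Hochberg adjustment over 24999 regions, and called where the adjusted p was below 0.05 and the change above 2-fold. Against 8 h, 7 of the 1425 late GATA6-only regions were called higher at day 1 (0.491%, against 5.42% of all regions), 231 at day 2 (16.2% against 36.8%), 318 at day 4 (22.3% against 30.5%) and 799 in XEN cells (56.1% against 24.2%). At 16 h none was called, against 0.004% of all regions. None was called lower in any of these comparisons, in which the share of all regions called lower rose from 0.016% (day 1) through 1.14% (day 2) and 6.57% (day 4) to 8.22% (XEN). Here too the low start left most of these regions little room for a 2-fold fall. The median of the 8 h averages was 0.0314 RPM, against 0.0800 RPM over all regions. Among regions of class closed at d0, which are a closer match in starting level, the share called higher was 40.6% (day 2), 39.6% (day 4) and 36.4% (XEN), so the late GATA6-only regions were called less at day 2 and day 4 and more in XEN cells against this background too. The day 2, day 4 and XEN counts against 8 h did not change when a library of any other group was left out, which alters the p-values. The 2-fold limit, rather than p, thus appears to decide these calls. Without that limit 396, 521 and 1010 were called higher (27.8%, 36.6% and 70.9%, against 47.7%, 37% and 30.1% of all regions).

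Scaling changed the counts and, at day 2, the balance of directions. When every library was centred on its median region, 49 regions were higher and 161 lower at day 2 (3.44% and 11.3%, against 14% and 13.6% of all regions). On day 4, 91 were higher and 10 lower (6.39% and 0.702%, against 16.2% and 15.6%), and in XEN cells 384 were higher and 1 lower (26.9% and 0.0702%, against 12.8% and 16.7%). The pseudocount mattered too. With 0.006 and 0.15 RPM, 34.5% and 1.96% were called higher at day 4, against 35.9% and 13.9% of all regions. In XEN cells the same settings gave 67.4% and 9.19%, against 29.4% and 7.74%. The 7 calls of day 1 became 0 without 8 h library a or without day 1 library b, 1 without day 1 library a and 13 without day 1 library c. The share of all regions moved too, from 5.42% to 0.712%, 0.576%, 2.48% and 7.23% in the same order. At day 4, 30% were called without 8 h library c, against 32.2% of all regions, so the shortfall against all regions was small in that fit.

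The day 2 and day 4 calls overlapped at 174 regions (12.2%, against 24.1% of all regions), with 57 called at day 2 and not at day 4 (4%, against 12.7%) and 144 at day 4 and not at day 2 (10.1%, against 6.36%). Between these 2 days themselves, 36 of the 1425 regions were higher at day 4 (2.53%, against 1.99% of all regions) and 9 lower (0.632%, against 8.73%). Between day 1 and day 2, 156 were higher (10.9%, against 19.9%). In all, 971 of the 1425 were called higher in at least 1 of day 2, day 4 and XEN cells (68.1%, against 51.1% of all regions), and 454 in none.

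XEN cells and day 4 were also compared directly. There, 365 regions were higher in XEN cells (25.6%, against 5.52% of all regions) and 50 lower (3.51%, against 12%). Without XEN library a, which is the shallow library, 196 were higher, against 2.31% of all regions. Without day 4 library a, 220 were higher and 18 lower, and without day 4 library b, 205 were higher and 20 lower, against 2.64% and 2.58% of all regions higher. In these fits the lone library was assumed to vary like the other groups.

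**Figure D3:**
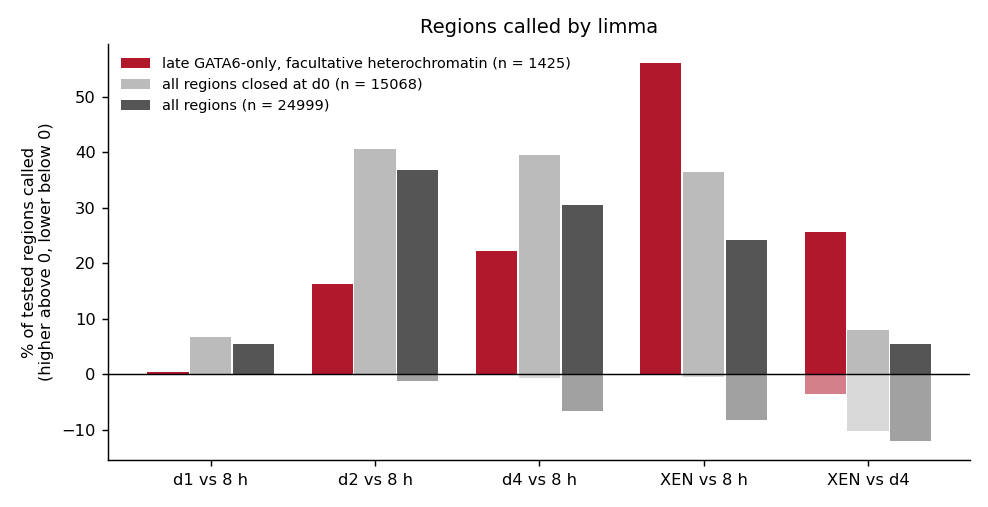
Percent of tested regions called by limma in 5 comparisons, higher above 0 and lower below 0 (paler bars), for 1425 late GATA6-only regions in facultative heterochromatin, 15068 regions of class closed at d0 and all 24999 regions. The late GATA6-only regions were called higher in 22.3% of cases on day 4 and 56.1% in XEN cells, where all regions had 30.5% and 24.2%.

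By their calls at day 4 and in XEN cells, 183 regions were higher in both (12.8%, against 15.3% of all regions) and 616 in XEN cells and not at day 4 (43.2%, against 8.89%). Another 135 were higher at day 4 and not in XEN cells (9.47%, against 15.1%), and 491 in neither (34.5%, against 60.7%). Of the 616, not every region differed between XEN cells and day 4 themselves: over all 1425, 346 were above both 8 h and day 4 in XEN cells (24.3%, against 4.34% of all regions). Conversely, 48 of the 318 regions called at day 4 were lower in XEN cells than at day 4 and 17 were higher still, which is 3.37% and 1.19% of the 1425 against 8.02% and 0.532% of all regions. These groups were made from the accessibility calls, and what follows describes them without a test.

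Regions that gained at day 4 included the largest increases of the induced cells. The region chr5:52992152-52992824 lies within 1 kb of an annotated noncoding transcript start and 45.6 kb upstream of Slc34a2, a sodium-phosphate cotransporter. Its d0 average was 0.0568 RPM. The 8 h libraries had 0.0522, 0.0517 and 0.0750 RPM, the day 2 libraries 0.852, 0.843 and 0.433, the day 4 libraries 0.513 and 0.548, and the XEN libraries 0.0923 and 0.125. The day 2 and day 4 libraries did not overlap those of 8 h or of XEN cells. Its log2 change from 8 h to day 4 was 2.65 ± 0.38 (SE, limma adjusted p = 1.4e-10), and XEN cells differed from day 4 by -2.02 ± 0.42 (adjusted p = 6.5e-05).

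An intron of Limch1, which encodes an actin-binding regulator of myosin, held a region (chr5:66888211-66888521, 143 kb from the start) that was likewise low in XEN cells, with an average still rising from 0.195 RPM on day 2 to 0.357 RPM on day 4, where that of Slc34a2 went from 0.709 to 0.530 RPM. From an average of 0.0234 RPM before induction, its libraries went from 0.0237, 0.0329 and 0.0516 (8 h) to 0.342 and 0.372 (day 4), with 0.0693 and 0.0728 in XEN cells, so that day 4 overlapped neither group. Day 4 was higher than 8 h by 2.57 ± 0.35 (limma adjusted p = 2.6e-11) and XEN cells were lower than day 4 by -1.94 ± 0.39 (adjusted p = 3.7e-05). Regions near Clmp, which encodes a cell adhesion molecule (chr9:40682672-40682967, 3.15 kb upstream), and near Atp2b4, a calcium pump of the plasma membrane (chr1:133815844-133816216, 15.0 kb upstream), were likewise called higher at day 4 by 2.43 and 2.46 and lower in XEN cells than at day 4 by -1.74 and -1.70 on the log2 scale. The Clmp region held no GATA6 motif of the authors' scan.

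Other gains were shared with XEN cells. The region chr10:9698918-9699572, 24.1 kb upstream of Samd5, had a d0 average of 0.0891 RPM and libraries at 0.0760, 0.0940 and 0.0703 (8 h), 0.508, 0.667 and 0.516 (day 2), 0.545 and 0.613 (day 4), and 0.693 and 0.694 (XEN). All libraries from day 2 on lay above all earlier ones, and XEN cells and day 4 differed by 0.25 ± 0.42 (limma adjusted p = 0.72). In an intron of Hs3st4, a heparan sulfate sulfotransferase, the region chr7:124358512-124359183 reached 0.379 and 0.382 RPM at day 4 and 0.392 and 0.378 RPM in XEN cells from 0.0427 to 0.0750 RPM at 8 h, a change of 2.32 ± 0.38 at day 4 (adjusted p = 1.4e-08).

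The region chr10:29398357-29398909, 36.1 kb upstream of Rnf146, a ubiquitin ligase that acts on axin in the Wnt pathway, was later than these. Its day 2 libraries had 0.0823, 0.157 and 0.0874 RPM, which overlapped the 8 h libraries at 0.0332 to 0.0844 RPM, and day 2 was not called (adjusted p = 0.053), while day 4 had 0.379 and 0.271 RPM, a gain of 2.09 ± 0.36 (limma adjusted p = 1.3e-07). The remaining 3 of the 10 largest gains were in an intron of Cd247, a chain of the T cell receptor complex (2.46), in an exon upstream of Txlnb (2.66) and in an intron of Spns2, a transporter of sphingosine-1-phosphate (2.18). The Cd247 region was most open at day 2, at 0.885 RPM, against 0.539 RPM (day 4) and 0.336 RPM (XEN). All 10 calls at day 4 were kept under every alternative that was run, while the lower calls in XEN cells at Txlnb and Spns2 were lost when either day 4 or either XEN library was left out, under both other pseudocounts, under quantile normalisation and with chromosome medians levelled.

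**Figure D4:**
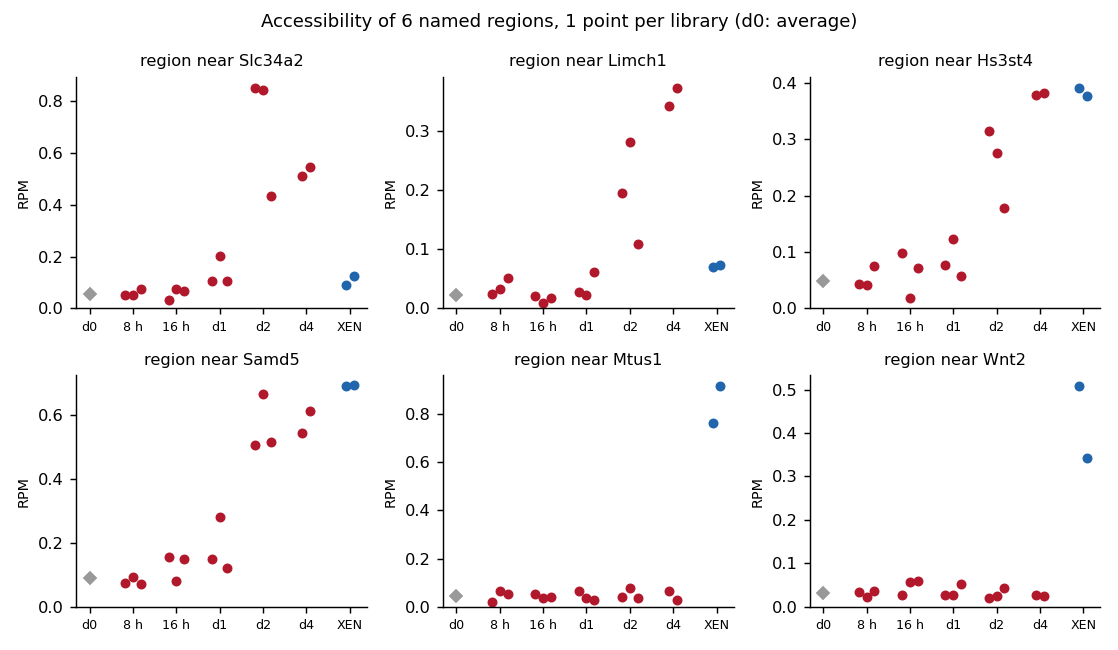
Accessibility in RPM of 6 late GATA6-only regions in facultative heterochromatin by group, with 1 point per recovered library and the average at d0. The regions near Slc34a2 and Limch1 were lower in XEN cells, a separate line, than at day 4. Those near Hs3st4 and Samd5 were at 0.378 to 0.694 RPM in XEN cells. Those near Mtus1 and Wnt2 were high in XEN libraries and reached at most 0.0762 RPM in all others.

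The regions that were highest in XEN cells relative to day 4 were not called in the induced cells where they were tested. At chr8:41154999-41155512, 21.6 kb upstream of Mtus1, a microtubule-associated protein gene, the XEN libraries had 0.762 and 0.915 RPM, from 33 and 264 reads. The 14 other libraries had 0.0190 to 0.0762 RPM, and the d0 average was 0.0433 RPM. XEN cells were higher than day 4 by 3.52 ± 0.39 (limma adjusted p = 2e-15), and day 4 differed from 8 h by 0.05 ± 0.35 (adjusted p = 0.92).

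Wnt2, a secreted Wnt ligand, had such a region 66.8 kb downstream of its start (chr6:17963633-17964073). It was at 0.508 and 0.343 RPM in XEN cells and at 0.0267 and 0.0251 RPM at day 4, a difference of 3.0 ± 0.37 (limma adjusted p = 1.4e-12). The region chr6:126035710-126036047, nearest to Ntf3, the neurotrophin-3 gene, had 0.346 and 0.253 RPM in XEN cells and 0.0160 and 0.0251 RPM at day 4, a difference of 2.70 ± 0.35 (adjusted p = 2.2e-11). For 2 more regions there are averages and no test: in an intron of Igsf11, an adhesion molecule gene, 0.588 RPM in XEN cells against 0.0542 RPM at day 4, and in an intron of Sucla2, a subunit of succinyl-CoA synthetase, 0.429 RPM against 0.0435 RPM.

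Part of the XEN difference followed chromosomes. In XEN cells the median change from d0 of all regions was 0.62 to 0.82 on chromosomes 6, 8, 16, 18 and 19, 0.65 on chromosome X, 0.55 on chromosome 14 and 0.16 to 0.42 on the others, while at day 4 it was 0.45 to 0.62 on all of them. The late GATA6-only regions moved with it: their median in XEN cells was 1.44 for the 666 regions on chromosomes 6, 8, 16, 18 and 19, a set chosen after seeing these values, and 1.14 for the 1827 on the others. At day 4 the same sets had 0.59 and 0.67. A different number of copies of these chromosomes in the X10 line was not tested.

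The excess of the late GATA6-only regions was also measured on each side of that divide. On the other chromosomes, 558 of 1088 were called higher in XEN cells than at 8 h (51.3%, against 21.3% of all regions there) and 223 higher than at day 4 (20.5%, against 3.98%). On chromosomes 6 and 8, where reads were recovered, 241 of 337 were called against 8 h (71.5%, against 36.7%) and 142 against day 4 (42.1%, against 12%). With the chromosome medians of every library levelled, 849 of the 1425 were called higher in XEN cells than at 8 h (59.6%, against 25.8% of all regions) and 372 higher than at day 4 (26.1%, against 5.58%). The Mtus1, Wnt2 and Ntf3 regions are on chromosomes 8 and 6, and their calls were kept after levelling.

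**Figure D5:**
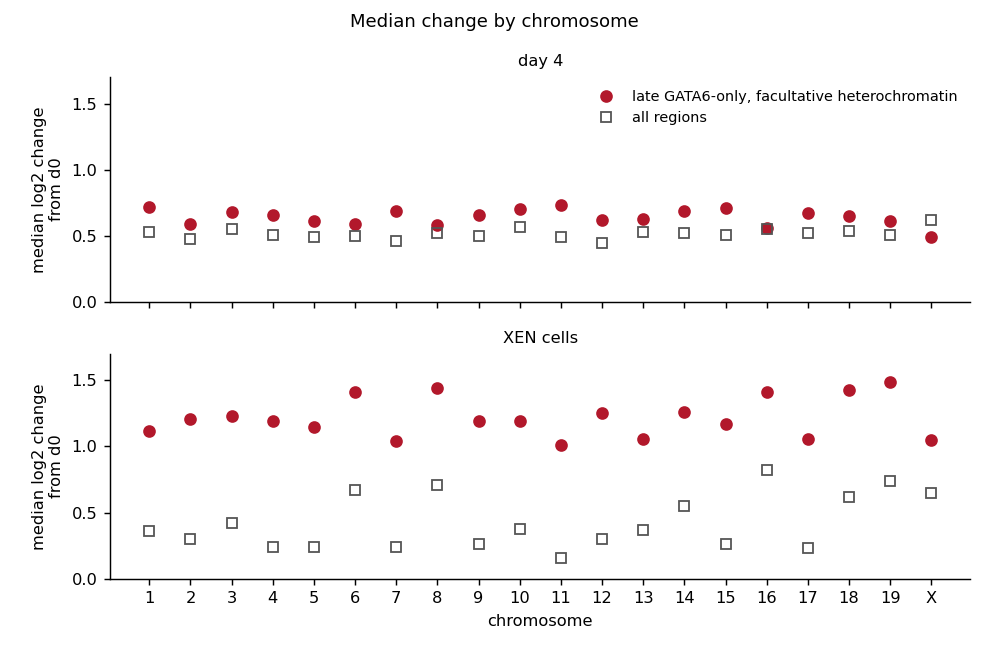
Median log2 change from d0 on each chromosome at day 4 and in XEN cells, for late GATA6-only regions in facultative heterochromatin and all regions. All regions ranged from 0.45 to 0.62 at day 4 and from 0.16 to 0.82 in XEN cells, and the late GATA6-only regions lay above them on every chromosome in XEN cells.

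Most of the late GATA6-only regions were far from promoters. Introns held 52.9% and intergenic DNA 42.0%, and 2.77% were within 1 kb of a transcript start, against 7.93% of all regions and 2.77% of those closed at d0. Their median width was 328 bases against 524, and the nearest start of a protein-coding gene was 42.0 kb away against 31.1 kb. Their GC content was 44.2% and their ratio of observed to expected CpG 0.191, against 45.2% and 0.195 over all regions. Introns here include those of noncoding transcripts. The histone marks were used to choose the regions and were not analysed here.

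Accessibility was also set beside the strength of the GATA6 site. When the 2233 regions with a motif were split into 4 groups by their best score, the group of lowest scores (6.23 to 8.35) had a median change of 0.66 at day 4 and 1.30 in XEN cells, and the group of highest scores (11.9 to 15.2) had 0.66 and 1.10. The 260 regions with no motif had 0.58 and 1.18. Of the 5 regions with the best scores, Castor2 was called at day 4 by 1.20 ± 0.30 (limma adjusted p = 0.00038), Map1b in XEN cells by 1.44 ± 0.35 (adjusted p = 0.00024), Usp47 and Ankrd65 in neither, and the region in an intron of Efna5, an ephrin gene, had no recovered reads and averages of 0.0600 RPM (day 4) and 0.375 RPM (XEN). The Castor2 call was lost without 8 h library a and when libraries were centred.

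Short words were also counted in 200 bases centred on the GATA6 summit, on both strands. AGATAA was in 57.6% of the late GATA6-only regions and 54.3% of all regions. The SOX word ACAATG was in 20.2% and 22.9%, and in 40.8% of the regions that differ from them in having a SOX17 peak. The forkhead words TGTTTAC and TGTTTGC were in 9.99% and 11.4% of them, against 6.14% and 7.24% of all regions and 2.47% and 4.54% of the Transient GATA6-only regions of facultative heterochromatin. Other Late sets had similar shares, with 9.56% and 11.2% of Late GATA6-only regions without histone marks and 8.41% and 13.1% of those with a SOX17 peak. TGANTCA, bound by AP-1, was in 15.9% against 12.2% of all regions, and in 13.3% and 15.6% of these other Late sets. The octamer ATGCAAAT of OCT factors was in 0.642% against 2.99% of all regions and 3.56% of the Transient set, which has no PTF peaks either. It was also rare in the other Late sets, at 1.2% of those without histone marks and 0.636% of those with a SOX17 peak. By calls, and without a test, AGATAA was in 59.6% of the 183 regions called both at day 4 and in XEN cells, 49.7% of the 616 called in XEN cells and not at day 4, 57.8% of the 135 called at day 4 and not in XEN cells, and 66.0% of the 491 called in neither. TGTTTAC was in 15.8%, 10.7%, 8.89% and 9.16% of these groups, and TGTTTGC in 16.4%, 15.6%, 3.70% and 10.2%.

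For comparison, 3 sets that differ from them in a single class of the rule were measured. The 1171 Late GATA6-only regions without histone marks in ES cells changed by a median of 0.60 at day 4 and 1.19 in XEN cells, a difference from the late GATA6-only regions of facultative heterochromatin of 0.05 at day 4. Of 577 tested, 21.1% were called at day 4, 56.2% in XEN cells and 25.0% higher in XEN cells than at day 4, against 22.3%, 56.1% and 25.6%. These sets share all libraries, and the differences between them were not tested.

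The 1742 Transient GATA6-only regions of facultative heterochromatin had the same histone class and another course of GATA6 binding. They also differed in other ways: their d0 median was 0.0445 RPM against 0.0267 RPM, and 96.3% against 89.6% had a GATA6 motif. They changed by 0.06 at day 4 and 0.35 in XEN cells, so that the late ones exceeded them by 0.59 at day 4, with 3.40% called higher at day 4 and 3.21% in XEN cells. The 2044 Late regions of facultative heterochromatin that carry a SOX17 peak changed by 1.51 at day 4 and 1.48 in XEN cells, so that the late GATA6-only regions differed from them by -0.86 at day 4. Of these, 69.5% were called at day 4 and 67.1% in XEN cells, and 9.12% were higher and 11.1% lower in XEN cells than at day 4. Between libraries, the differences from the Transient set and from the SOX17 set at day 4 ranged from 0.61 to 0.62 and from -0.84 to -0.81 when either day 4 library was left out.

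The late GATA6-only regions were nearest to 1927 genes, 1536 of them with a single region. A median of 160 kb lay between a region and its nearest neighbour of the set, and 268 regions (10.8%) had another within 10 kb. There were 16 genes with 5 or more regions. These were chosen after their numbers were seen, and not all of them are named here. The calls at these genes stand beside 22.3% (day 4) and 56.1% (XEN) of the whole set, and 30.5% and 24.2% of all regions. The 7 regions nearest to Nrp1, which encodes neuropilin, a co-receptor for VEGF and semaphorins, changed by a median of 0.11 at day 4 and 1.49 in XEN cells, with 0 called at day 4 and 6 in XEN cells. The 7 nearest to Arglu1 changed by 0.63 and 1.50, with 0 and 7 called. Both genes, and Sall1 below, are on chromosome 8, 1 of the chromosomes on which all regions were raised in XEN cells. The closer background for them is the 71.5% of the set called in XEN cells on chromosomes 6 and 8. Cbr4, Fut10 and Pard3, also on chromosome 8, had 5 regions each, with 4, 3 and 3 called in XEN cells.

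Around Ror1, a receptor tyrosine kinase for Wnt5a, the 5 regions changed by 1.14 at day 4 and 1.59 in XEN cells, with 1 and 5 called. Sall1, a zinc finger repressor gene, had 5 regions with 1 and 3 called. The 5 regions of Pcgf5, which encodes a subunit of Polycomb repressive complex 1, changed by 0.73 and 1.67 and the 6 of Tcf7l2, a transcription factor of the Wnt pathway, by 1.19 and 1.45, without recovered reads. The 5 regions of Efna5 changed by 0.30 and 1.32 and the 5 of Igsf11 by 0.26 and 1.98, also without a test. Of these, Pcgf5 and Tcf7l2 are on chromosome 19 and Igsf11 on chromosome 16, which were raised in XEN cells too.

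Next, 5 gene lists were read by nearest gene. Polycomb-type developmental regulators (143 genes) were nearest to 38 regions at 27 genes, with a median change of 0.70 at day 4 and 1.13 in XEN cells, close to the 0.65 and 1.22 of the whole set. Of 17 tested, 2 were called at day 4 and 13 in XEN cells. For this list and those below, the whole set had 22.3% called at day 4 and 56.1% in XEN cells, with 25.6% higher in XEN cells than at day 4. All regions had 30.5%, 24.2% and 5.52%. Differences of the lists from these shares were not tested. The region in an intron 32.6 kb upstream of Tbx2, a T-box repressor gene, rose at day 4 by 1.28 ± 0.37 (limma adjusted p = 0.0022). The one 175 kb downstream of the start of Ebf3, a neuronal helix-loop-helix factor gene, rose by 1.06 ± 0.30 (adjusted p = 0.0019). Both calls were lost without 8 h library a or day 4 library a, that of Ebf3 also without 8 h library b. Averages without a test went from 0.0250 to 0.122 RPM at day 4 in an intron of Runx1, the haematopoietic regulator, from 0.0198 to 0.104 RPM upstream of Pax8, and from 0.0421 to 0.161 RPM downstream of Sox21.

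Primitive endoderm and yolk sac endoderm genes (55 genes) were nearest to 18 regions at 12 genes, with medians of 0.73 and 1.17. Of 10 tested, 4 were called at day 4 and 4 in XEN cells. The region in an intron of Pdgfra, the receptor that marks primitive endoderm (chr5:75159431-75159806), had 0.0329 to 0.0609 RPM at 8 h, 0.208 and 0.176 RPM at day 4 and 0.0693 and 0.0659 RPM in XEN cells. It rose at day 4 by 1.51 ± 0.36 (limma adjusted p = 0.00015), and the lower level in XEN cells (-1.18 ± 0.39, adjusted p = 0.020) was not called when any 1 of the day 4 or XEN libraries was left out. A region upstream of Dusp4, a phosphatase of the MAP kinase pathway, rose by 1.37 ± 0.33 (adjusted p = 0.00017), one upstream of Col4a2, a chain of basement membrane collagen, by 1.24 ± 0.33 (adjusted p = 0.00069) and one upstream of Podxl, the sialomucin podocalyxin, by 1.06 ± 0.38 (adjusted p = 0.014). The Col4a2 call was lost without day 4 library b, and the Podxl call without 8 h library a or either day 4 library.

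Signalling genes (118 genes) were nearest to 43 regions at 29 genes, with medians of 0.60 and 1.32. Of 19 tested, 2 were called at day 4, 11 in XEN cells and 9 higher in XEN cells than at day 4. The region nearest to Fzd4, a Wnt receptor gene, lay outside it, 24.6 kb downstream of its start. Its libraries had 0.0142 to 0.0470 RPM at 8 h, 0.118 and 0.0754 RPM at day 4 and 0.254 and 0.277 RPM in XEN cells. XEN cells thus lay above all others, and their change was 2.34 ± 0.35 (limma adjusted p = 7.1e-10). The region nearest to Axin2, a Wnt target and inhibitor, was 209 kb upstream of its start. It rose at day 4 by 1.25 ± 0.34 (limma adjusted p = 0.00094). Both day 4 calls were lost without 8 h library a, and that of Fzd4 also without day 4 library a. When libraries were centred, none of the day 4 calls named at Tbx2, Ebf3, Pdgfra, Dusp4, Col4a2, Podxl, Fzd4 and Axin2 was kept. Wnt7b, another Wnt ligand, had the region with the highest level at d0 (0.140 RPM, chr15:85545054-85546009), which reached 0.277 RPM (day 4) and 0.493 RPM (XEN), and a narrower region in the same intron that went from 0.0702 RPM to 0.446 RPM (day 4) and 0.221 RPM (XEN), both without a test.

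Pluripotency genes were nearest to 3 regions. That of Tfcp2l1, a transcription factor of naive ES cells, was called at day 4 (1.76 ± 0.38, limma adjusted p = 2.2e-05) and in XEN cells, and 2 regions of Klf4 were called in neither. Fibroblast markers were nearest to 5 regions, with 0 of 2 tested called at day 4 and that of Col1a2 called in XEN cells, from 0.0188 to 0.0332 RPM at 8 h to 0.300 and 0.121 RPM. The other regions of highest level at d0 were those near Rin3 (0.121 RPM), Slc3a2 (0.120 RPM), Defb30 (0.114 RPM) and Nup160 (0.112 RPM). The Rin3 region was called at day 4 (1.22 ± 0.38, adjusted p = 0.0051), a call lost without day 4 library a, and the Slc3a2 region, whose average fell on day 2 to 0.0543 RPM, was at 0.0855 RPM (day 4) and 0.120 RPM (XEN).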

How the data were processed

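ATAC-seq of 20 samples was grouped by the sample titles. Per the labels and methods, the authors used cutadapt, Bowtie2 (mm10) and SAMtools and counted fragments shorter than 100 bp in GATA6 peaks, with versions not given in the sources used here. The deposited accessibility values are RPM, averaged by the authors within each group and not divided by width. The deposited motif score and classes were used unchanged. A column of classes from the authors' Oct4 knockdown comparison, and 52 per-sample columns of other assays, were not used.

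The design had allowed for a column per replicate. As the columns are averages, whole reads were recovered from rows written with 15 digits (24999 regions, tolerance 1e-08 reads), with every value whole in the 6 groups solved. It appears that 1 read was added per region and library, which is worth most in XEN library a (0.0231 RPM). With it removed, 761 regions were called higher in XEN cells than at 8 h (53.4%, against 23.3% of all regions). Against day 4, 334 were then higher and 73 lower (23.4% and 5.12%, against 4.85% and 14.8%). XEN gave 2 libraries for 3 labelled samples, and d0 gave no solution. P-values measure only the spread between recovered libraries, whose median region holds 4 to 27 reads.

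Log2(RPM + 0.03) was fitted with limma 3.58.1 (R 4.3.3) over 16 libraries, with Benjamini-Hochberg adjustment over 24999 regions, after tests on simulated data. Genes are the nearest protein-coding starts of GENCODE M21. Regions and lists were chosen with earlier results of these data known. Named regions were the 10 largest gains at day 4 among those called, the 5 highest at d0, the 5 highest and 5 lowest in XEN cells relative to day 4, the 5 best motifs, and up to 5 per list. Alternatives were other pseudocounts (0.006 and 0.15 RPM), centring, quantile normalisation, subtraction of the lowest value, a filter on the lowest 10%, no limit on the change, and single libraries left out. Removal of the added read, levelled chromosome medians, left-out chromosomes and recovered regions alone were added after seeing the data.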

Additional observations from a re-analysis of the deposited data

How the results depend on the processing

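No paired analysis was possible because the recovered libraries could not be tied to the labelled replicate numbers. Of 220 alternative values, 145 stayed close to those reported, 73 moved and 2 changed sign. Many of these, and of the alternatives to named calls below, left out a library of a group outside the comparison. Such alternatives say little about stability: against 8 h they left the 231 (day 2), 318 (day 4) and 799 (XEN) calls unchanged. With a pseudocount of 0.006 RPM, the median changes were 0.64 (day 2), 0.99 (day 4) and 1.74 (XEN), and 1231 regions passed 2-fold at day 4. The differences from the unmarked, Transient and SOX17 sets were 0.04, 0.90 and -0.98. Higher calls by limma were 13 (day 1), 394 (day 2) and 491 (day 4). These are 0.912%, 27.6% and 34.5%, against 6.86%, 44.1% and 35.9% of all regions. With 0.15 RPM, the medians were 0.14, 0.24 and 0.51, 68 (day 4) and 283 (XEN) passed 2-fold, and the differences were 0.02, 0.22 and -0.50. Here limma called 0, 38, 28 and 131 higher against 8 h. These are 0%, 2.67%, 1.96% and 9.19%, against 0.716%, 19.7%, 13.9% and 7.74% of all regions. In XEN cells, 48 were higher and 5 lower than at day 4 (3.37% and 0.351%, against 0.808% and 5.76%). Centring turned the day 2 median to -0.44, with 0.09 at day 4 and 0.73 in XEN cells, 195 and 817 past 2-fold, and 1, 49, 91 and 384 called. Quantile normalisation gave 0.07, 0.31 and 0.84, 257 and 1038, and 1, 68 and 145 called. These calls are 0.0702%, 4.77% and 10.2%, against 1.2%, 11.6% and 16.3% of all regions. The cause of these shifts was not tested.

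Without the lowest 10% of regions, the medians were 0.56, 0.80 and 1.39 and the differences 0.01, 0.71 and -0.78. Subtracting the lowest value gave 0.70 at day 4 and differences of 0.05, 0.64 and -0.89. Regions closed at d0 gave differences of 0.05, 0.59 and -0.87, and recovered regions 0.01, 0.60 and -0.81. With no limit on the change, 396 (day 2) and 521 (day 4) were called higher. These are 27.8% and 36.6%, against 47.7% and 37% of all regions, so at day 4 the shares were alike. Levelled chromosomes gave 4 at day 1 (0.281%, against 4.39% of all regions). Leaving out chromosomes 6 and 8 gave 223 higher in XEN cells than at day 4, against 3.96% of all regions.

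With each library left out, the medians ranged from 0.38 to 0.46 (day 2), 0.63 to 0.68 (day 4) and 1.09 to 1.29 (XEN), and 380 to 396 and 788 to 929 recovered regions passed 2-fold. The differences ranged from -0.01 to 0.02, 0.61 to 0.62 and -0.84 to -0.81. Calls ranged from 0 to 13 (day 1), 181 to 275 (day 2), 248 to 428 (day 4), 654 to 894 (XEN against 8 h), and 196 to 370 higher and 18 to 50 lower (XEN against day 4). The shares of all regions moved with these counts. Without 8 h library a, b or c, the day 4 calls were 17.4%, 24.1% and 30%, against 25.1%, 35.1% and 32.2% of all regions. The day 2 calls were 12.7%, 17.1% and 19.3%, against 30.4%, 42% and 38.1%. In XEN cells they were 45.9%, 56% and 62.7%, against 19.4%, 26.8% and 27%. Of 917 alternative outcomes of 37 named calls, 833 were kept, 84 were lost and 0 reversed. Low reads limit the closed regions, 1 read in XEN library a is near the d0 median, and d0 itself has no replicate values.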
